A study of Mus musculus with 22 samples.

Results

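The 33 genes described here encode the machinery of glycolysis and of the cellular response to low oxygen. They are a list chosen by name, but with earlier results of these data known. Of them, 15 are glucose transport, glycolytic and lactate or pyruvate genes. The others are glycogen, adenylate and oxygen sensing genes and further targets of the hypoxia response. All 33 had a probe set, among 19938 genes measured. They were followed in CD45+ blood-lineage cells that were taken by magnetic beads from regenerating tibialis anterior muscle of C57B6/J mice after cardiotoxin, a snake toxin that kills muscle fibres, and then sorted as macrophages. The Gr1+/Cx3cr1low subset, called Gr1-positive here, and the Gr1-/Cx3cr1high subset, called Gr1-negative, were each collected 1, 2, 4 and 8 days after injury. Each subset and day had 3 arrays, except Gr1-positive day 8 with 1 array, which gives 22 Affymetrix arrays in 8 groups. All groups share the strain and the injury, and no uninjured muscle was analysed here, so every comparison is between days or between subsets. The labels name the antibodies as Gr1 and Cx3cr1 but also call the sorted cells Ly6C+ F4/80low and Ly6C- F4/80high. They do not say how many mice a sample holds.

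Glycolysis turns glucose into pyruvate without oxygen, and cells that rely on it pass pyruvate on to lactate and export it. The factor HIF-1 controls many genes of this route: its alpha subunit, encoded by Hif1a, is hydroxylated and degraded while oxygen is plentiful and accumulates when oxygen is short. In macrophages the same factor is also raised by inflammatory signals, and inflammatory macrophages are known for strong glycolysis. HIF-1 binds DNA at a short element with the core ACGTG.

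The promoters of the genes that differed between the subsets at day 2 are shown here with that core, read on either strand as ACGTG or CACGT, in capitals, together with Ldha, the gene of lactate dehydrogenase A, as a glycolytic gene. Each line holds the 250 bases before the annotated start, 5′ to 3′ on the gene's strand, from RefSeq on GRCm38.p6.
Egln3 (chr12:54203875-54204124, minus strand): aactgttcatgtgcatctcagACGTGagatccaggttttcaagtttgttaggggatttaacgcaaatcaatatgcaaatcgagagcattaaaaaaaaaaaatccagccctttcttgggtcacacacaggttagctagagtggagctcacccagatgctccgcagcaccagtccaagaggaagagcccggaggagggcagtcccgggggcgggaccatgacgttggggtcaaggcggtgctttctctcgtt
Ankrd37 (chr8:45999851-46000100, minus strand): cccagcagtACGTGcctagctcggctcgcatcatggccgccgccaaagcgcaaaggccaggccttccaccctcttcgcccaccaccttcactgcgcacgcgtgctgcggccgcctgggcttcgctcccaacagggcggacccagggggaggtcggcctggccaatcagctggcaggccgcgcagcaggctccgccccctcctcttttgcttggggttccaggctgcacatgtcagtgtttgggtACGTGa
Slc16a3 (chr11:120948817-120949066, plus strand): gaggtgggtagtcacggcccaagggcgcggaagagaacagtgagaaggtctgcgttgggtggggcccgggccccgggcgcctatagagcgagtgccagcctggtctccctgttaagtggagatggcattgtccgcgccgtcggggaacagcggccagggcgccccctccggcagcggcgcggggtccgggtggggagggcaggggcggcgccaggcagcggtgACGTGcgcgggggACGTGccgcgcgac
Ero1a (chr14:45318573-45318822, minus strand): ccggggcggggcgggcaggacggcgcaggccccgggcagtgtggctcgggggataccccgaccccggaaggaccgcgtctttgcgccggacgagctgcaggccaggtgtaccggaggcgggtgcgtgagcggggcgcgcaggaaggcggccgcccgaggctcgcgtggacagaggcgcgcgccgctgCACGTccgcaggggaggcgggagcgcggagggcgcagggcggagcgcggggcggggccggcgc
Bnip3 (chr7:138909507-138909756, minus strand): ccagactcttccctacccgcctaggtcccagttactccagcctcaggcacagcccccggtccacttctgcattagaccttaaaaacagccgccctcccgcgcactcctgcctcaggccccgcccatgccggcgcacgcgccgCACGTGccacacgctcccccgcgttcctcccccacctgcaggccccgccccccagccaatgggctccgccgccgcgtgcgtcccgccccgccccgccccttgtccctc
Ldha, upstream start (chr7:46845554-46845803, plus strand): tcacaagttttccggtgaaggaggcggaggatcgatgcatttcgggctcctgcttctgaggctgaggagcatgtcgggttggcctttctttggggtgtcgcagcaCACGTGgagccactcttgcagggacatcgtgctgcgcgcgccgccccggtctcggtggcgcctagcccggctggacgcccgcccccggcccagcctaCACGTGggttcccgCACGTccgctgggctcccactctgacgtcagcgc
Ldha, downstream start (chr7:46846832-46847081, plus strand): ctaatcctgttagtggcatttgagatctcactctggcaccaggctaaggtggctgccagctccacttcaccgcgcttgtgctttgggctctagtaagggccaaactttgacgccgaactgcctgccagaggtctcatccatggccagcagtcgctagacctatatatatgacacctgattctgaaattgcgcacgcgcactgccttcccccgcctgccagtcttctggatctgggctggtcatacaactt

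The core lay 229 bases before the start of Egln3 and 63 bases before that of Ero1a. It lay 241 and 6 bases before the start of Ankrd37, and 27 and 14 bases before that of Slc16a3. In Bnip3, and in the 2 farther of the 3 stretches before the upstream start of Ldha, it formed the palindrome CACGTG, which reads as the core on both strands and which other helix-loop-helix factors also bind. The 250 bases before the downstream start of Ldha held 0 matches. A promoter entry was found for 30 of the 33 genes, in windows of 300 bases that reach 50 bases past the start. The core was in at least 1 window of 22 of these 30 genes (73.3%), against 21.8% of all 27025 genes with an entry. By window it was in 55.6% of 45 windows against 19.6% of all 32851. The windows of the 33 genes were also richer in CG, with a median of 24 CG pairs against 7, and among windows with at least 24 CG pairs the core was in 70.8% of theirs (24 windows) and in 29.3% of all. Many of these genes are on the list because they are known HIF targets, so the share is a description of the list and not evidence about these cells, and a match is not a bound site.

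The data are log2 signals. A difference of 1 is a doubling, a value after ± is a standard deviation (SD) over the arrays of a group for a level and a standard error for a difference, and levels of different genes cannot be set against each other because their probes differ. Array medians over all probe sets ran from 7.02 to 7.18, and no pair of arrays was identical (smallest root mean square difference 0.233). The means of 10 macrophage markers, among them Csf1r, Adgre1 and C1qa, were high in every group (11.70 to 12.26 over the arrays). Differences were called at an adjusted p under 0.05, with limma fitted to all 22 arrays and Benjamini-Hochberg adjustment over all genes of a comparison.

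Most of the genes had their highest mean at day 1 or day 2, and most were called lower from day 2 to day 4. In Gr1-negative cells the highest group mean was at day 1 for 25 of 33 genes, against 23.3% of all genes, and the lowest was at day 4 for 17 or day 8 for 12 (36.4% and 28.6% of all genes). Hk1 was highest at day 4 there, and Pfkfb3, Adm and Plod2 at day 8. Over days 1, 2 and 4 in Gr1-positive cells, 14 genes were highest at day 1 and 18 at day 2 (24.2% and 42.2% of all genes), and 29 were lowest at day 4 (45.7%). The median level of the 33 genes was 10.54 to 10.85 on the Gr1-positive arrays of days 1 and 2 and 9.55 to 9.73 on those of day 4, while the median of all genes stayed between 7.26 and 7.47.

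**Figure D1:**
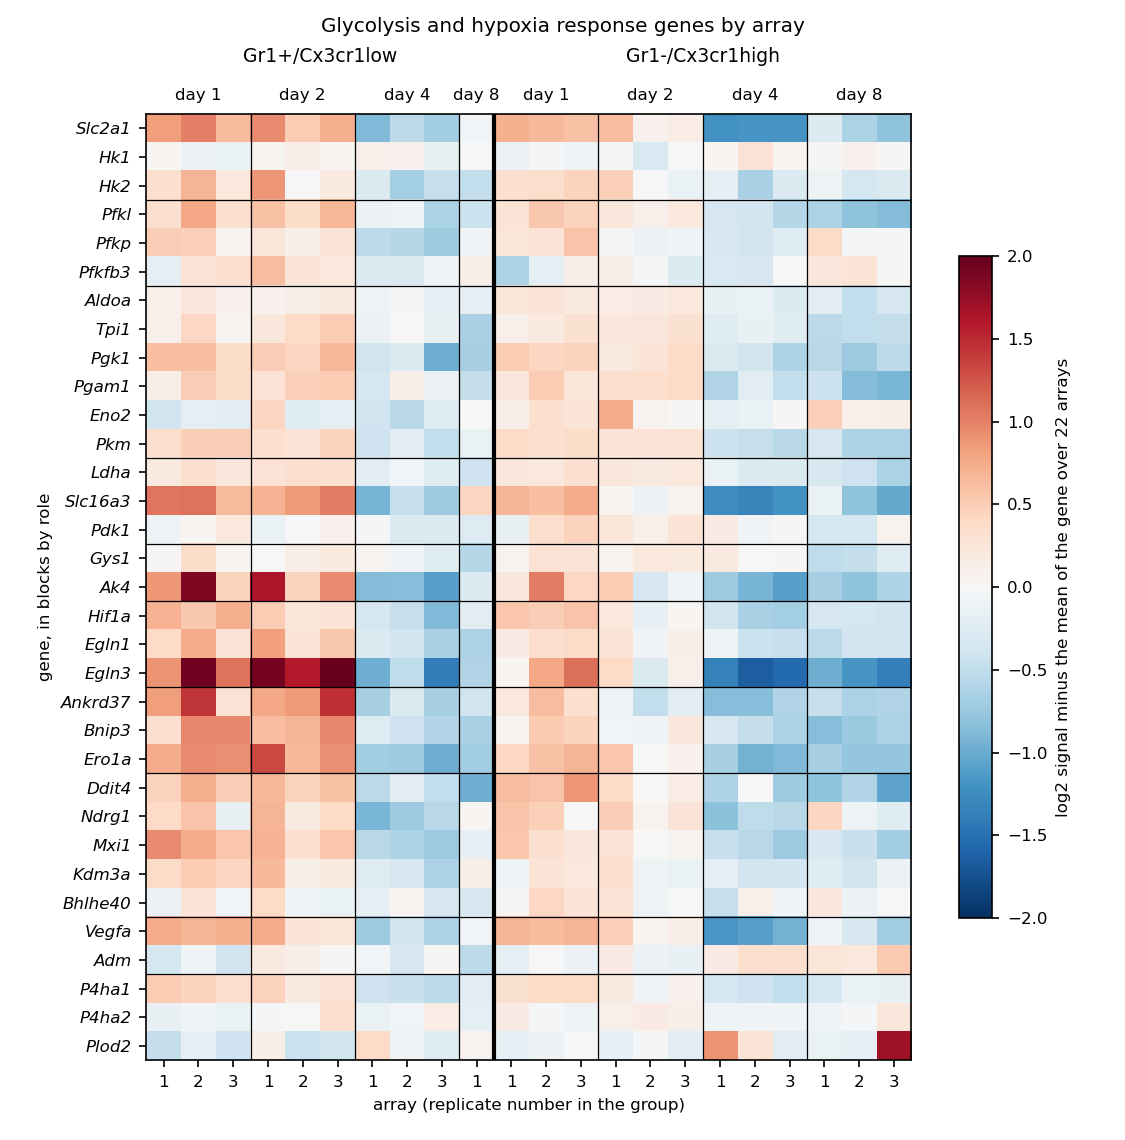
Log2 signal of each of the 33 genes on each of the 22 arrays, minus the mean of the gene over all arrays (colour, cut at -2 and 2). Rows are genes in blocks by role and columns are arrays by subset, day and replicate number. Most rows are red on days 1 and 2 and blue on day 4; Hk1, P4ha2 and Adm stay pale, and Plod2 is highest on Gr1-negative day 8 replicate 3, at 6.77.

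From day 2 to day 4, 25 of the 33 genes fell in Gr1-positive cells and none rose. Of all genes tested, 7.44% were called lower and 11.8% higher in that step. The median change of the 33 was -0.80, against -0.06 over all genes, and 32 of 33 had a negative sign. A positive sign was found in 3.03% of the 33 and in 38.8% of all genes. In Gr1-negative cells 19 fell and none rose, against 6.69% of all genes called lower and 8.15% higher, with a median of -0.49 against -0.07. These 19 were all among the 25. In whole populations of sorted cells, fewer cells that express a gene and less RNA per cell cannot be told apart. Whichever array was left out, 22 of the 25 calls and 16 of the 19 held; the others are named below.

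**Figure D2:**
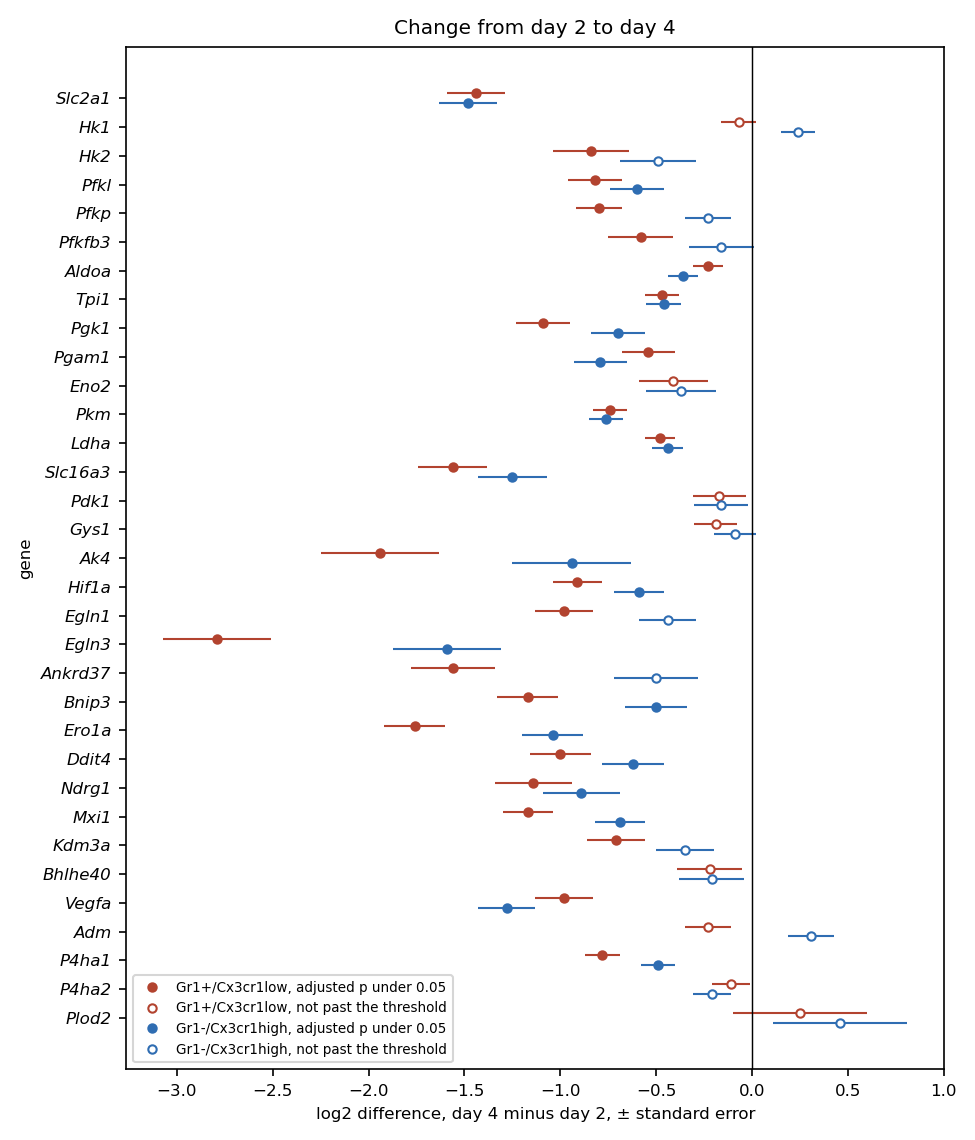
Change of each of the 33 genes from day 2 to day 4 (horizontal axis, log2 difference with its standard error) in Gr1-positive (red) and Gr1-negative cells (blue). Filled points passed the threshold: 25 in Gr1-positive and 19 in Gr1-negative cells, all to the left of 0.

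Glucose enters through Slc2a1, which encodes the transporter GLUT1. Its signal on the 3 Gr1-positive arrays was 12.69, 12.25 and 12.47 at day 2 and 10.85, 11.21 and 11.04 at day 4. In Gr1-negative cells it was 12.35, 11.83 and 11.89 at day 2 and 10.53, 10.56 and 10.56 at day 4. The groups did not overlap in either subset, and the falls were close in size: -1.44 ± 0.15 (2.71-fold, adjusted p = 5.46e-06) and -1.48 ± 0.15 (2.78-fold, adjusted p = 6.73e-06). Hk2, the inducible hexokinase that traps glucose in the cell, fell in Gr1-positive cells from 10.10 ± 0.46 to 9.26 ± 0.19 (-0.84 ± 0.20, adjusted p = 0.00483). The Hk2 change in Gr1-negative cells was -0.49 ± 0.20 and did not pass (adjusted p = 0.113).

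Hk1, the widely expressed hexokinase, has 2 probe sets that disagreed. Its brighter probe set, used here, changed by -0.07 ± 0.09 among Gr1-positive cells (adjusted p = 0.671) and by 0.24 ± 0.09 among Gr1-negative cells (adjusted p = 0.1). The other Hk1 probe set fell by 0.44 and 0.36 (adjusted p = 0.0133 and 0.0489 over all single-gene probe sets). The brighter set is numbered among probe sets of chromosome 14 (21 of its 22 nearest neighbours), while Hk1 lies on chromosome 10, so the value of Hk1 depends on which of them is read.

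At the committing step of glycolysis, Pfkl, the liver-type phosphofructokinase, fell in both subsets (-0.82 ± 0.14, adjusted p = 0.000465, and -0.60 ± 0.14, adjusted p = 0.00656). Pfkp, the platelet-type enzyme, fell from 10.46 ± 0.08 to 9.66 ± 0.09 in Gr1-positive cells (-0.80 ± 0.12, adjusted p = 0.000151). In Gr1-negative cells Pfkp changed by -0.23 ± 0.12 (adjusted p = 0.247). Pfkfb3, whose product makes the activator of phosphofructokinase, fell in Gr1-positive cells (-0.58 ± 0.17, adjusted p = 0.0214). This call was lost without day 2 replicate 1, day 4 replicate 1 or day 4 replicate 2 (adjusted p up to 0.104), and the Pfkfb3 change in Gr1-negative cells was -0.16 ± 0.17 (adjusted p = 0.564).

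The later enzymes fell together, 5 of 6 in each subset. Pgk1, which encodes phosphoglycerate kinase, fell from 12.15 ± 0.12 to 11.07 ± 0.37 in Gr1-positive cells and from 11.90 ± 0.10 to 11.21 ± 0.17 in Gr1-negative cells (-1.09 ± 0.14, adjusted p = 2.71e-05, and -0.70 ± 0.14, adjusted p = 0.00169). Pkm, the gene of pyruvate kinase M, fell by 0.74 ± 0.09 and 0.76 ± 0.09 (adjusted p = 2.1e-05 and 1.96e-05). Pgam1, the phosphoglycerate mutase, fell by 0.54 ± 0.14 and 0.79 ± 0.14 (adjusted p = 0.00978 and 0.000737), the former call lost without day 4 replicate 1 (adjusted p = 0.0665). Tpi1, triosephosphate isomerase, fell by 0.47 ± 0.09 and 0.46 ± 0.09 (adjusted p = 0.0016 and 0.00209). Aldoa, the aldolase that splits the sugar, changed least among those called (-0.23 ± 0.08, adjusted p = 0.0498, and -0.36 ± 0.08, adjusted p = 0.00381), and its Gr1-positive call held in 1 of 6 fits with an array left out, that without day 4 replicate 2 (adjusted p up to 0.155). Eno2, the neuron-type enolase, changed by -0.41 ± 0.18 and -0.37 ± 0.18 and did not pass (adjusted p = 0.125 and 0.186). Several of these genes have close copies elsewhere in the genome: the probe sets used for Hk1, Pgk1, Pgam1, Ak4 and Bnip3 are numbered among sets of another chromosome, where 96.6% of 2170 sets checked sit among sets of their own. The 3 probe sets of Pgk1 gave -1.03 to -1.09 and -0.67 to -0.70, and the 3 of Pgam1 gave -0.54 to -0.64 and -0.78 to -0.79.

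The end product gene Ldha fell from 12.52 ± 0.02 to 12.04 ± 0.10 in Gr1-positive cells and from 12.42 ± 0.03 to 11.99 ± 0.08 in Gr1-negative cells (-0.48 ± 0.08, adjusted p = 0.000497, and -0.44 ± 0.08, adjusted p = 0.00133). Slc16a3, the lactate exporter MCT4, fell much further. On the Gr1-positive arrays it read 11.41, 11.57 and 11.75 at day 2 and 9.78, 10.26 and 10.01 at day 4 (-1.56 ± 0.18, 2.94-fold, adjusted p = 9.85e-06). On the Gr1-negative arrays it went from 10.75, 10.60 and 10.79 to 9.48, 9.40 and 9.51 (-1.25 ± 0.18, 2.38-fold, adjusted p = 9.64e-05). No array of day 4 reached the lowest of day 2 in its subset. Pdk1, the HIF target kinase that keeps pyruvate out of mitochondria, changed by -0.17 ± 0.14 and -0.16 ± 0.14 and did not pass (adjusted p = 0.45 and 0.5).

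Of the storage and energy genes, Ak4, a mitochondrial adenylate kinase, read 9.07, 7.91 and 8.40 on the Gr1-positive arrays of day 2 and 6.59, 6.60 and 6.37 at day 4. This 3.84-fold fall (-1.94 ± 0.31, adjusted p = 0.000198) left no overlap, although the day 2 arrays lay far apart. In Gr1-negative cells Ak4 fell by 0.94 ± 0.31 (adjusted p = 0.047), a call lost with any array left out except day 2 replicate 2 (adjusted p up to 0.205). The dimmer of its 2 probe sets changed by only -0.52 ± 0.15 and -0.38 ± 0.15 (adjusted p = 0.0191 and 0.106), against -1.94 and -0.94. The brighter set, used here, is numbered among probe sets of chromosome 2 (22 of its 22 nearest neighbours). The dimmer set is numbered among those of chromosome 4, where Ak4 lies. The size of the Ak4 fall therefore depends on which set is read. Gys1, muscle-type glycogen synthase, changed by -0.19 ± 0.11 and -0.09 ± 0.11 (adjusted p = 0.248 and 0.627).

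The oxygen sensing genes fell as well. Hif1a itself went from 12.14 ± 0.14 to 11.23 ± 0.27 in Gr1-positive cells and from 11.83 ± 0.19 to 11.23 ± 0.17 in Gr1-negative cells (-0.91 ± 0.13, adjusted p = 5.88e-05, and -0.59 ± 0.13, adjusted p = 0.00282). Egln3 encodes PHD3, a prolyl hydroxylase that marks HIF alpha subunits for decay and is itself induced by HIF. It had the largest change of the 33 genes in this step in both subsets. The Gr1-positive arrays read 10.48, 10.15 and 10.55 at day 2 and 7.58, 8.06 and 7.18 at day 4, a 6.9-fold fall (-2.79 ± 0.28, adjusted p = 3.13e-06). The Gr1-negative arrays went from 8.96, 8.28 and 8.66 to 7.21, 6.92 and 7.01 (-1.59 ± 0.28, adjusted p = 0.000623), with no overlap in either subset. Egln1, which encodes the main oxygen sensor PHD2, fell in Gr1-positive cells (-0.98 ± 0.15, adjusted p = 0.00014), and its change in Gr1-negative cells was -0.44 ± 0.15 (adjusted p = 0.0561).

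Among the other HIF targets, Ero1a, an oxidase that forms disulfide bonds in the endoplasmic reticulum, read 12.00, 11.34 and 11.59 on the Gr1-positive arrays of day 2 and 9.99, 9.97 and 9.71 at day 4 (-1.76 ± 0.16, 3.38-fold, adjusted p = 1.32e-06). Its fall in Gr1-negative cells was 2.05-fold (-1.04 ± 0.16, adjusted p = 0.000169). Bnip3, a mitochondrial protein that starts mitophagy, fell by 1.17 ± 0.16 in Gr1-positive cells (adjusted p = 6.79e-05) and by 0.50 ± 0.16 in Gr1-negative cells (adjusted p = 0.046). The second Bnip3 call held in 1 of 6 leave-one-out fits, that without day 4 replicate 1, and its adjusted p reached 0.2. Ankrd37, an ankyrin repeat protein of the HIF response, fell in Gr1-positive cells from 8.89 ± 0.37 to 7.33 ± 0.22 (-1.56 ± 0.22, adjusted p = 6.45e-05). Its change in Gr1-negative cells was -0.50 ± 0.22 (adjusted p = 0.148).

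The regulators of stress and transcription gave 4 of 5 falls in Gr1-positive and 3 of 5 in Gr1-negative cells. Mxi1, an antagonist of Myc, fell by 1.17 ± 0.13 and 0.69 ± 0.13 (adjusted p = 8.86e-06 and 0.00114). Ndrg1, a stress-induced gene of the hypoxia response, fell by 1.14 ± 0.20 and 0.89 ± 0.20 (adjusted p = 0.000521 and 0.00452). Ddit4, which encodes the mTORC1 inhibitor REDD1, fell by 1.00 ± 0.16 and 0.62 ± 0.16 (adjusted p = 0.000269 and 0.0138), the latter call lost without day 2 replicate 1, day 4 replicate 1 or day 4 replicate 3 (adjusted p up to 0.0919). Kdm3a, a histone H3 lysine demethylase, fell in Gr1-positive cells (-0.71 ± 0.15, adjusted p = 0.00196). Bhlhe40, a repressor of the clock and hypoxia response, changed by -0.22 ± 0.17 and -0.21 ± 0.17 (adjusted p = 0.393 and 0.427).

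Of the secreted factors, Vegfa, the vascular endothelial growth factor, read 11.94, 11.52 and 11.60 on the Gr1-negative arrays of day 2 and 10.30, 10.38 and 10.52 at day 4 (-1.28 ± 0.15, 2.43-fold, adjusted p = 2.02e-05). It fell 1.98-fold in Gr1-positive cells (-0.98 ± 0.15, adjusted p = 0.000163). Adm, the vasodilator peptide adrenomedullin, had opposite signs in the 2 subsets (-0.23 ± 0.12 and 0.31 ± 0.12), neither past the threshold (adjusted p = 0.193 and 0.0803). P4ha1, a subunit of the enzyme that hydroxylates proline in collagen, fell by 0.78 ± 0.09 and 0.49 ± 0.09 (adjusted p = 1.19e-05 and 0.000924). P4ha2 and Plod2, of the same kind of collagen modification, did not pass, at -0.11 ± 0.10 and 0.25 ± 0.35 in Gr1-positive cells and -0.21 ± 0.10 and 0.46 ± 0.35 in Gr1-negative cells.

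**Figure D3:**
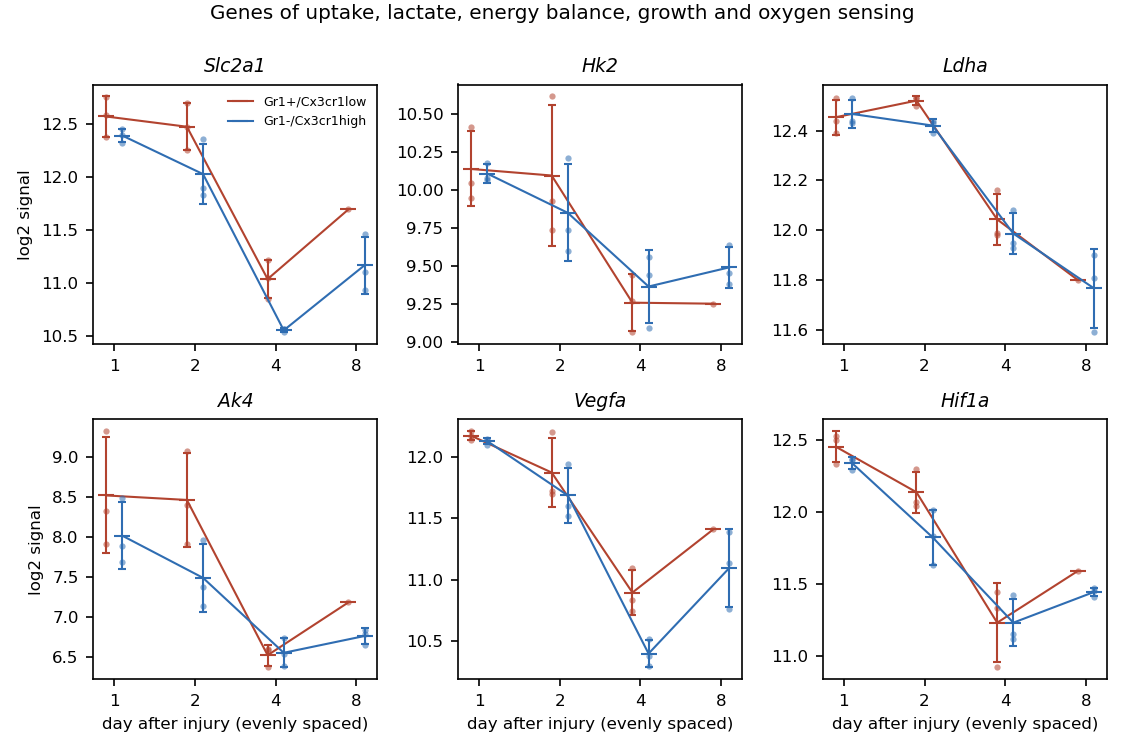
Log2 signal by day (vertical axis, each panel on its own scale; days evenly spaced) of 6 genes in Gr1-positive (red) and Gr1-negative cells (blue). Small points are arrays, dashes are group means joined by lines, and bars are SDs over 3 arrays; Gr1-positive day 8 is 1 array. All 6 are lower at day 4 than at day 2, and Slc2a1 and Vegfa stand higher again at day 8.

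Related genes outside the list did not all follow it. Of 11 measured other genes of glycolysis, 3 rose and 1 fell in Gr1-positive cells from day 2 to day 4, and 3 rose and 2 fell in Gr1-negative cells. Ldhb, the heart-type lactate dehydrogenase, rose by 0.76 ± 0.21 and 0.82 ± 0.21 (adjusted p = 0.0131 and 0.0106) while Ldha fell. Pfkfb4, a relative of Pfkfb3, rose by 0.74 ± 0.12 and 0.75 ± 0.12 (adjusted p = 0.000238 and 0.000298). Slc16a1, which encodes the lactate transporter MCT1, fell by 1.34 ± 0.14 and 1.11 ± 0.14 (adjusted p = 5.75e-06 and 3.97e-05), and Hk3, a hexokinase of myeloid cells, fell in Gr1-negative cells (-0.74 ± 0.15, adjusted p = 0.00197).

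Of 17 genes of pyruvate entry and the TCA cycle, 1 rose and 5 fell in Gr1-positive cells and 1 rose and 4 fell in Gr1-negative cells. The riser in each was Pdk2, another pyruvate dehydrogenase kinase (1.55 ± 0.15, 2.93-fold, adjusted p = 2.13e-06, and 1.24 ± 0.15, 2.37-fold, adjusted p = 2.02e-05). Idh3a, a subunit of isocitrate dehydrogenase, fell by 0.80 ± 0.14 and 0.79 ± 0.14 (adjusted p = 0.000534 and 0.000803). Of 6 pentose phosphate genes, 2 fell in Gr1-positive cells and 1, Pgd, in Gr1-negative cells (-0.29 ± 0.10, adjusted p = 0.0396, and -0.35 ± 0.10, adjusted p = 0.0175). Of 10 glycogen genes, 2 rose and 3 fell in Gr1-positive cells and none rose and 2 fell in Gr1-negative cells, with Ugp2, which makes UDP-glucose, lower in both (-0.61 ± 0.14 and -0.68 ± 0.14, adjusted p = 0.00319 and 0.00164).

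Of 23 further hypoxia targets, 4 rose and 8 fell in Gr1-positive cells and 4 rose and 6 fell in Gr1-negative cells, with medians of 0.00 and -0.04. Arg1, the arginase of alternatively activated and hypoxic macrophages, fell 5.69-fold and 11.7-fold (-2.51 ± 0.32, adjusted p = 3.07e-05, and -3.55 ± 0.32, adjusted p = 1.83e-06). Hilpda, a lipid droplet protein, fell by 1.30 ± 0.13 and 1.14 ± 0.13 (adjusted p = 3.41e-06 and 1.55e-05). Pdgfb, a platelet-derived growth factor, rose by 1.35 ± 0.18 and 1.13 ± 0.18 (adjusted p = 4.65e-05 and 0.00033), so calls in this wider list went in both directions. Of all genes, 11.8% were called higher and 7.44% lower in Gr1-positive cells, and 8.15% and 6.69% in Gr1-negative cells. Among 12 further genes of oxygen sensing, 1 rose and 3 fell in each subset. Eloc, a subunit of the ubiquitin ligase that degrades HIF alpha, fell in both (-0.47 ± 0.11 and -0.42 ± 0.11, adjusted p = 0.00492 and 0.0139), and Vhl, its recognition subunit, rose in Gr1-negative cells (0.56 ± 0.12, adjusted p = 0.00323).

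Markers of other cells moved in the same step, and their part in the result was not tested. In Gr1-positive cells 10 of 11 T and NK cell markers rose from day 2 to day 4, their mean level going from between 6.53 and 6.67 on the day 2 arrays to between 8.13 and 9.71 on the day 4 arrays. In Gr1-negative cells 5 of 11 rose, from 6.88 to 7.18 up to 7.75 to 8.72. Dendritic cell markers rose in 5 and 6 of 10, from 7.13 to 7.50 up to 8.43 to 8.74 in Gr1-positive and from 8.27 to 8.63 up to 9.17 to 9.77 in Gr1-negative cells. Neutrophil markers fell in 5 and 2 of 15 and rose in 1 of 15 in each, with means of 7.87 to 8.04 and 7.14 to 7.73 on the Gr1-positive arrays of days 2 and 4. Macrophage markers rose in 4 and fell in 2 of 10 in Gr1-positive cells, and rose in 2 and fell in 2 in Gr1-negative cells. Muscle fibre genes rose in 4 of 14 in each subset, fibroblast genes in 1 and 2 of 8, B cell genes in 1 of 5 in each and endothelial genes in 2 and 0 of 7. Mast cell and eosinophil genes rose in 0 and 1 of 9, and neither of the 2 red cell genes passed.

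From day 1 to day 2 none of the 33 genes passed in Gr1-positive cells, where 0.291% of all genes were called. There, 2 of the 33 had an unadjusted p under 0.05. With array quality weights 3 of the 33 were called (1 higher, 2 lower). That weighted fit called 1842 of all 19938 genes in this step, against 58 without weights. In Gr1-negative cells 3 fell and none rose, against 1.08% of all genes called lower and 3.8% higher. A negative sign was found in 27 of 33 (median -0.18 against 0.02). A positive sign was found in 18.2% of the 33 and in 55.9% of all genes. Slc16a3 went from 11.40, 11.31 and 11.46 at day 1 to 10.75, 10.60 and 10.79 at day 2 (-0.67 ± 0.18, adjusted p = 0.0318). Hif1a went from 12.36, 12.29 and 12.37 to 12.01, 11.63 and 11.83 (-0.51 ± 0.13, adjusted p = 0.0232). Pfkp went from 10.49, 10.53 and 10.82 to 10.23, 10.13 and 10.17 (-0.44 ± 0.12, adjusted p = 0.0479). The groups did not overlap for any of these, but none of the 3 calls held in all fits with an array left out. No call remained without day 1 replicate 1 or 3 or without day 2 replicate 2 or 3. These fits called 288, 703, 161 and 318 of all genes. There was 1 call without day 1 replicate 2 and there were 6 without day 2 replicate 1. Those fits called 719 and 1286 of all genes. With array quality weights 11 genes were called lower, and 8 were without both day 2 arrays numbered 1. Over all genes these fits called 2823 and 2231, against 973 without weights and with all arrays. Outside the list, 2 of 11 other glycolysis genes and 3 of 10 glycogen genes were called higher in Gr1-negative cells. Of 17 genes of pyruvate entry and the TCA cycle 3 were higher, and none of these lists had a gene called lower. Of 23 further hypoxia targets 2 were higher and 1 lower.

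At day 2, 5 of the 33 genes were called lower in Gr1-negative than in Gr1-positive cells, and none was called higher. Of all genes, 0.682% were called lower in Gr1-negative cells and 2.85% higher. With array quality weights 15 of the 33 were called lower and none higher. That weighted fit called 3049 of all 19938 genes in either direction, against 705 without weights. The median of the 33 was -0.25 against -0.03 over all genes, and 27 of 33 had a negative sign. A positive sign was found in 18.2% of the 33 and in 44.2% of all genes. The 5 were Egln3, a HIF hydroxylase, Slc16a3, the lactate exporter, and Ankrd37, Ero1a and Bnip3, which are grouped here as other HIF targets. That group does not hold all HIF targets of the list: Pdk1, for example, was not called. None was called among the secreted factors, the stress and transcription regulators or the collagen modification genes, which also hold genes of the hypoxia response. No glycolytic enzyme was among these 5, although 15 of the 33 genes had an unadjusted p under 0.05. The share of all genes at an unadjusted p under 0.05 was not counted for any comparison. Such counts are therefore a description only.

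For Egln3 the difference was 3.39-fold (8.63 ± 0.34 against 10.39 ± 0.21, adjusted p = 0.0022), with the highest Gr1-negative array at 8.96 and the lowest Gr1-positive array at 10.15. Ankrd37 read 7.76, 7.38 and 7.66 in Gr1-negative and 8.64, 8.72 and 9.32 in Gr1-positive cells (-1.29 ± 0.22, 2.45-fold, adjusted p = 0.0036). These 2 calls held whichever array was left out. Slc16a3 was 1.82-fold lower (10.71 ± 0.10 against 11.57 ± 0.17, -0.86 ± 0.18, adjusted p = 0.0114). Its call was lost without Gr1-negative replicate 2 or Gr1-positive replicate 3 (adjusted p up to 0.0759).

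Ero1a read 11.24, 10.67 and 10.76 in Gr1-negative and 12.00, 11.34 and 11.59 in Gr1-positive cells (-0.75 ± 0.16, 1.69-fold, adjusted p = 0.0121). The highest Gr1-negative and the lowest Gr1-positive array lay close together, and the call was lost without Gr1-positive replicate 1 or Gr1-negative replicate 2 or 3 (adjusted p up to 0.0946). Bnip3 read 9.60, 9.57 and 9.88 against 10.28, 10.34 and 10.61 (-0.72 ± 0.16, 1.65-fold, adjusted p = 0.0204). It was lost without Gr1-negative replicate 1 or 2 or Gr1-positive replicate 3 (adjusted p up to 0.126). The count of calls was 2 once Gr1-negative replicate 2 was dropped. Dropping Gr1-positive replicate 3 or 2 gave 3 or 8 calls. Over all genes these fits called 122, 238 and 953 in turn, against 705 with all arrays. Among the related genes outside the list, Slc2a3, the glucose transporter GLUT3, was lower in Gr1-negative cells (-0.82 ± 0.19, adjusted p = 0.0215). Epas1, which encodes HIF-2 alpha, was higher (0.72 ± 0.13, adjusted p = 0.00691). Of 17 genes of pyruvate entry and the TCA cycle 3 were higher and none lower, and of 10 glycogen genes 1 was higher and none lower. Of 23 further hypoxia targets, a list that also holds Slc2a3, 1 was higher and 1 lower.

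Neutrophil, dendritic and some other cell type markers differed at the same day, and their part in the result was not tested. Of 15 neutrophil markers 4 were lower in Gr1-negative cells, with means of 7.28 to 7.46 on the Gr1-negative and 7.87 to 8.04 on the Gr1-positive arrays. Of 10 dendritic markers 6 were higher, with means of 8.27 to 8.63 and 7.13 to 7.50. Among T and NK cell and macrophage markers 1 each was higher, and of 9 mast cell and eosinophil markers 1 was higher and 1 lower. Markers differed at days 1 and 4 too. At day 1, 5 neutrophil markers were lower, and 6 dendritic, 2 T and NK cell and 1 mast cell and eosinophil marker were higher. At day 4, 1 neutrophil, 1 dendritic and 1 T and NK cell marker were lower, and 5 dendritic and 1 mast cell and eosinophil marker were higher.

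At days 1 and 4 none of the 33 genes passed between the subsets, where 0.858% and 0.717% of all genes were called; at each of these days 6 of the 33 had an unadjusted p under 0.05. The medians were -0.04 and 0.00. Egln3 differed by -0.67 ± 0.28 at day 1 (adjusted p = 0.433), -1.76 at day 2 and -0.56 ± 0.28 at day 4. The change of the subset difference was tested directly. From day 1 to day 2 no gene of the list passed and 0% of all genes were called. Of the 33, 30 moved in the direction of Gr1-positive cells and 4 had an unadjusted p under 0.05. A positive sign was found in 9.09% of the 33 and in 48.1% of all genes. From day 2 to day 4 no gene passed (0.015% of all genes). Of the 33, 27 (81.8%) had a positive sign, against 45.7% of all genes, and 11 had an unadjusted p under 0.05. Egln3 changed by 1.20 ± 0.39 and Ankrd37 by 1.07 ± 0.31 (adjusted p = 0.56 and 0.481). From day 1 to day 4 no gene passed either (0.0953% of all genes, 1 at an unadjusted p under 0.05). With array quality weights 1 gene was called for the change from day 2 to day 4 and 1 between the subsets at day 4. Without both day 2 arrays numbered 1 there was 1 call at day 1. Over all genes these fits called 109, 316 and 268 in the same comparisons.

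**Figure D4:**
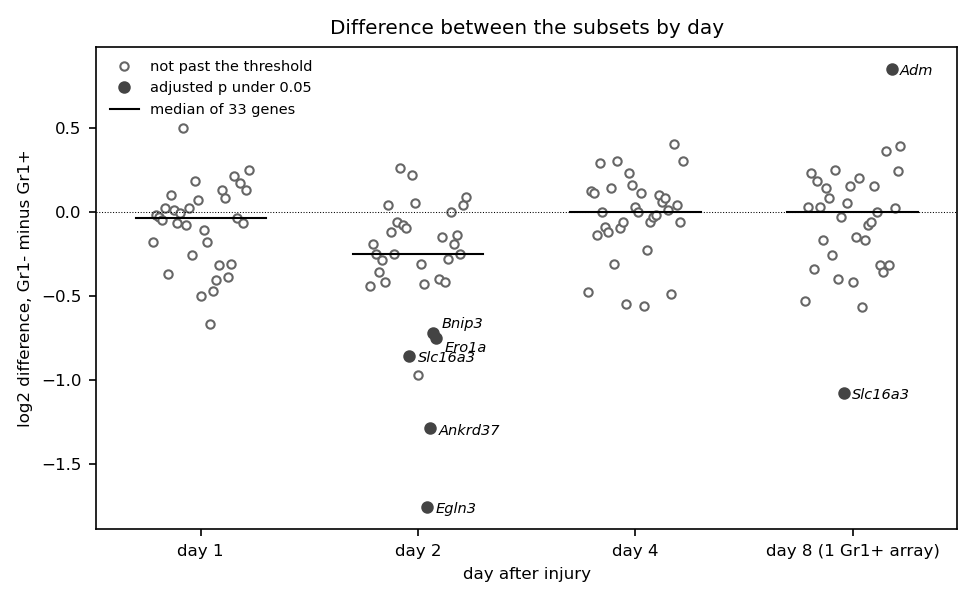
Difference between the subsets (vertical axis, log2, Gr1-negative minus Gr1-positive) for each of the 33 genes at each day. Filled points passed the threshold and are named, and bars are medians of the 33 genes; the median is -0.25 at day 2 and between -0.04 and 0.00 at the other days.

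From day 4 to day 8 part of the list rose again in Gr1-negative cells. There 5 of the 33 genes rose and 1 fell, against 3.17% of all genes called higher and 7.34% lower. Vegfa read 10.30, 10.38 and 10.52 at day 4 and 11.39, 11.14 and 10.76 at day 8 (0.69 ± 0.15, 1.62-fold, adjusted p = 0.0113). Slc2a1 read 10.53, 10.56 and 10.56 and then 11.46, 11.10 and 10.93 (0.61 ± 0.15, 1.53-fold, adjusted p = 0.0182). Ndrg1 read 10.17, 10.48 and 10.43 and then 11.42, 10.89 and 10.74 (0.65 ± 0.20, 1.57-fold, adjusted p = 0.0456). The groups did not overlap, and in each of these genes day 8 replicate 1 was the highest of its group.

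Slc16a3 rose by 0.60 ± 0.18 and Pfkp by 0.41 ± 0.12 (adjusted p = 0.0367 and 0.0416), and Gys1 fell by 0.49 ± 0.11 (adjusted p = 0.0115). None of the 6 calls held in every fit with an array left out. No call remained without day 4 replicate 1 or without day 8 replicate 1. There was 1 call without day 8 replicate 2, with 2 without day 4 replicate 2 and 3 without day 4 replicate 3. Over all genes these fits called 523, 592, 547, 828 and 1318 in turn, against 2096 with all arrays. Of the genes outside the list, Slc16a1 rose (0.65 ± 0.14, adjusted p = 0.0105), and Ldhb and Pdk2, which had risen from day 2 to day 4, fell by 1.55 ± 0.21 and 0.49 ± 0.15 (adjusted p = 0.000492 and 0.0405).

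Markers of other cells also moved from day 4 to day 8 in Gr1-negative cells, and their part in the result was not tested. Of 14 muscle fibre markers 6 rose, with means of 7.50 to 7.67 on the day 4 arrays and 7.73 to 8.06 on those of day 8. Of 10 dendritic markers 4 fell, from 9.17 to 9.77 down to 8.78 to 9.25. In addition, 1 of 11 T and NK cell markers and 1 of 9 mast cell and eosinophil markers rose, and 1 of 15 neutrophil and 1 of 10 macrophage markers fell.

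Apart from Pfkp, no enzyme of the glycolytic chain was called higher in this step. Compared with day 1, at day 8 in Gr1-negative cells 23 of the 33 genes were lower and 1 was higher, against 9.77% of all genes called lower and 8.68% higher, and the median was -0.70 against -0.02. The day 1 and day 8 arrays are also part of the steps above, and this comparison was added after the data were seen. Egln3 went from 8.61, 9.34 and 9.67 to 7.58, 7.39 and 7.20 (-1.82 ± 0.28, 3.52-fold, adjusted p = 0.000131). Ddit4 went from 10.30, 10.26 and 10.57 to 8.88, 9.09 and 8.64 (-1.51 ± 0.16, 2.85-fold, adjusted p = 4.56e-06). Slc16a3 was still 2.5-fold lower (-1.32 ± 0.18, adjusted p = 3.5e-05), its rise after day 4 included. No array of day 8 reached the lowest of day 1 for these 3 genes.

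Pfkl, Pgk1, Pgam1, Pkm and Ldha were lower than at day 1 by 1.19, 1.06, 1.06, 0.89 and 0.70 (differences of -1.19 ± 0.14, -1.06 ± 0.14, -1.06 ± 0.14, -0.89 ± 0.09 and -0.70 ± 0.08, adjusted p of 3.55e-05 or lower). Gys1 and Pdk1, which did not pass from day 2 to day 4, were lower as well (-0.62 ± 0.11, adjusted p = 0.000416, and -0.44 ± 0.14, adjusted p = 0.037). The higher gene was Adm, from 6.78 ± 0.08 to 7.21 ± 0.16 (0.43 ± 0.12, adjusted p = 0.0129). Of the 24 calls 21 held whichever array was left out; those of Adm, Hk2 and Pdk1 did not (adjusted p up to 0.0818, 0.117 and 0.168). Over the same span 11 of 14 muscle fibre, 8 of 11 T and NK cell, 6 of 8 fibroblast, 2 of 10 dendritic and 2 of 5 B cell markers rose. Of 10 macrophage markers 5 rose and 3 fell, of 15 neutrophil markers 1 rose and 5 fell, and 2 of 7 endothelial markers fell. The part of these markers in the result was not tested. Of 11 other glycolysis genes 3 rose and 2 fell, and of 23 further hypoxia targets 5 rose and 6 fell. Of 17 genes of pyruvate entry and the TCA cycle 1 rose and 4 fell. None of 6 pentose phosphate genes rose and 4 fell.

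The Gr1-positive cells of day 8 rest on 1 array, which the fit takes to vary like the other groups. From day 4, Slc16a3 was higher on it (11.14 against 9.78, 10.26 and 10.01; 1.13 ± 0.25, adjusted p = 0.0143) and Tpi1 was lower (10.92 against 11.44, 11.56 and 11.41; -0.55 ± 0.13, adjusted p = 0.0216). Of all genes, 1.58% were called higher and 4.62% lower in this step. The Tpi1 call was lost without day 4 replicate 2 (adjusted p = 0.0562), the Slc16a3 call with no array of day 4. There were 6 calls with array quality weights, 6 after normalizing by quantiles again and 4 without both day 2 arrays numbered 1. Over all genes these fits called 3168, 1487 and 2022 in either direction, against 1238 without these changes. Each of these counts rests on the same day 8 array, so they are a description only. Of 15 neutrophil markers 2 were higher on the day 8 array, where their mean was 7.93 against 7.14 to 7.73 at day 4. Of 11 T and NK cell markers 1 was lower, and of 5 B cell markers 1 was higher and 1 lower; the part of these markers in the result was not tested.

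Between the subsets at day 8, Slc16a3 was lower in Gr1-negative cells (10.59, 9.91 and 9.69 against 11.14; -1.08 ± 0.25, adjusted p = 0.0324) and Adm higher (7.13, 7.10 and 7.40 against 6.36; 0.85 ± 0.16, adjusted p = 0.0117). Of all genes, 1.33% were called higher and 0.692% lower. The Adm call held with each Gr1-negative array left out, and that of Slc16a3 was lost without replicate 2 or replicate 3 (adjusted p up to 0.0945). In a fit of the day 8 arrays alone neither passed (adjusted p = 0.251 and 0.171). At the same day 5 of 15 neutrophil markers were lower in Gr1-negative cells (means of 6.90 to 6.98 against 7.93), and 5 of 9 mast cell and eosinophil markers were higher (7.25 to 8.23 against 6.07). Of 10 dendritic markers 3 were higher and 1 lower (8.78 to 9.25 against 8.04), and 1 of 10 macrophage markers was higher and 1 of 5 B cell markers lower; their part in the result was not tested. Across the days Slc16a3 had the negative sign in each subset difference: 11.39 ± 0.07 against 11.65 ± 0.25 at day 1 and 9.46 ± 0.06 against 10.02 ± 0.24 at day 4 (-0.55 ± 0.18, adjusted p = 0.212).

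**Figure D5:**
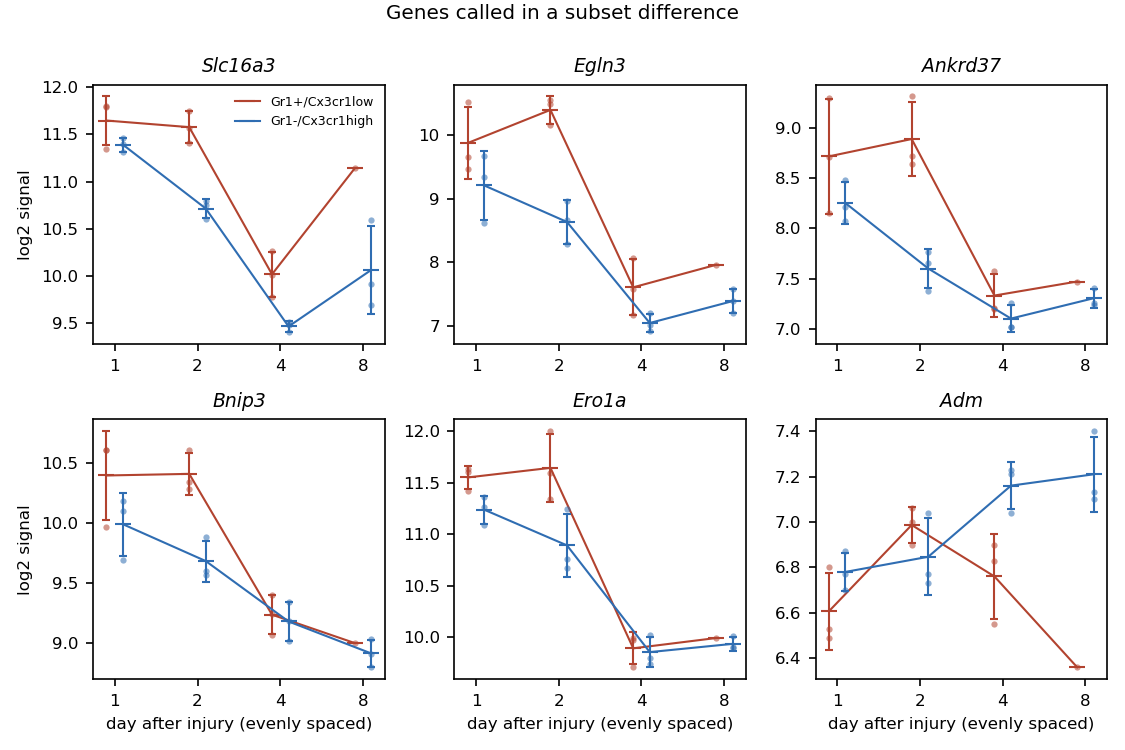
Log2 signal by day (vertical axis, each panel on its own scale; days evenly spaced) of the 6 genes called between the subsets at day 2 or day 8, in Gr1-positive (red) and Gr1-negative cells (blue). Small points are arrays, dashes are group means joined by lines, and bars are SDs over 3 arrays; Gr1-positive day 8 is 1 array. For 5 of the genes the blue points lie below the red at day 2, and for Adm the blue points lie above the red at day 8.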

How the data were processed

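The authors deposited log2 signals of 35556 probe sets for 22 arrays, computed with RMA per the submitters' processing notes; RNA from sorted cells was biotin-labelled per the labels' protocols, and the array's build and RMA version are not given in the sources used here. RMA adjusts background, quantile-normalizes arrays and summarizes probes, so global shifts are removed. Strong signals may be compressed on an array, which was not examined here. Probe sets were named through the platform annotation and Entrez IDs: 21789 had 1 gene, 1621 several and 12146 none, and those with several or none were left out. Each gene took its probe set with the highest mean over all arrays.

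Groups came from the sample titles. Differences were fitted with limma 3.58.1 in R 4.3.3 (1 mean per group over 22 arrays, eBayes without trend), with Benjamini-Hochberg adjustment over 19938 genes. The fit was tested on simulated data. The labels call samples biological replicates without naming mice, so p-values measure the spread between these samples. No detection call was used, and the number of arrays limits precision. Alternatives were another normalization, median centring, array weights, a mean-variance trend, a filter on low means, other probe set rules, fewer arrays and a block for the replicate number. The 33 genes, the other pathway lists and the marker lists were chosen with earlier results of these data known. By rule, values of every array are given for genes called between subsets and for the 3 largest called changes of each step, and other pathway genes are named only where called, the 2 largest per direction and list. Promoters were matched by symbol to RefSeq on GRCm38.p6.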

Additional observations from a re-analysis of the deposited data

How the results depend on the processing

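Over 86 calls of the 33 genes in 8 comparisons, no alternative turned a direction. The falls from day 2 to day 4 moved little: 23 to 26 calls in Gr1-positive and 17 to 24 in Gr1-negative cells over the alternatives (22 to 24 and 16 to 19 with an array left out), and the comparison of day 8 with day 1 gave 22 to 25. The subset differences moved more. The settings that follow changed the number of calls over all genes as well. With array quality weights 3049 of all 19938 genes were called at day 2, against 705 without weights. With array quality weights there were 15 calls at day 2, 1 at day 4, 3 from day 1 to 2 in Gr1-positive cells, 11 in Gr1-negative cells, 6 from day 4 to 8 in Gr1-positive cells and 1 where day 2 and day 4 subset differences were compared. Normalizing by quantiles again gave 6 from day 4 to 8 in Gr1-positive cells. Leaving out both day 2 arrays numbered 1 gave 1 call at day 1, 8 from day 1 to 2 in Gr1-negative cells and 4 from day 4 to 8 in Gr1-positive cells. The day 8 arrays alone gave 0 calls between the subsets. With an array left out the calls ran from 2 to 8 at day 2, 1 to 3 at day 8, 1 to 3 from day 4 to 8 in Gr1-positive cells, 0 to 6 from day 1 to 2 and 0 to 6 from day 4 to 8 in Gr1-negative cells. Over all genes the fits with an array left out called 122 to 953 at day 2. In Gr1-negative cells they called 161 to 1286 from day 1 to 2 and 523 to 2565 from day 4 to 8. The cause of these movements was not tested.

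With the replicate number as a block there were 4 calls at day 1 (1 higher, 3 lower). At day 2 there were 14 (1 higher, 13 lower) and at day 4 there were 4 (1 higher, 3 lower). The block gave 3 where day 2 and day 4 subset differences were compared. At day 8, with 1 Gr1-positive array, the median difference of the listed genes was 0.02, against 0.00 without the block. In these subset comparisons each day and number had its own term in the fit, and no correlation was used. The correlation of 0.278 entered only the fits of steps between days. Of 9 same-numbered pairs of arrays 8 correlated above 0.1 (0.0981 to 0.646), and all 9 correlated best with their own number, a hint from the data and not from the design, since the labels tie no numbers to mice. Reading the dimmest probe set of every gene in place of the brightest, an alternative chosen after seeing the data, ended 4 of the 86 calls. These were Aldoa from day 2 to 4 in Gr1-positive cells, Ak4 and Bnip3 in the same step in Gr1-negative cells, and Ak4 from day 1 to 8. Aldoa has 1 probe set, so its own values were the same in both fits.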

Other observations

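The Gr1-positive and Gr1-negative arrays numbered 1 at day 2 were the highest of their groups for several genes of the list. Slc2a1 read 12.69 and 12.35 on them, Hk2 10.62 and 10.21, Ero1a 12.00 and 11.24, Ndrg1 11.66 and 11.48, and Vegfa 12.20 and 11.94. Eno2, the neuron-type enolase, read 8.26 and 8.56 there and at most 7.65 and 7.90 on the other arrays of the groups. Plod2, a lysyl hydroxylase of collagen, read 6.77 on Gr1-negative day 8 replicate 3 and 4.95 and 4.91 on the other arrays of that group; the mean of 8 fibroblast markers ran from 7.73 to 9.99 over these 3 arrays.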
